A study of Mus musculus and Callithrix jacchus with 22 samples.

Results

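Chromatin accessibility was compared between adult and newborn cortex of the marmoset (Callithrix jacchus), a small New World monkey, within the cell types that carried the same name at both ages. The comparison used the 10 marmoset libraries of a series of 22. All 10 came from wild-type animals, and the labels give the tissue as somatosensory cortex. Of these libraries 5 were newborn (labelled Day0), 2 came from adults labelled Y7 and 3 from adults labelled Y8. The method was droplet-based single-cell ATAC-seq, in which the transposase Tn5 cuts and tags open DNA and a barcode assigns each read to a cell. After papain dissociation, live cells were sorted, so cell numbers are shares of what was recovered and not of the tissue. Nothing in the labels says how many animals stood behind the libraries of an age, and p-values therefore measure only the spread between libraries, which may be technical.

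The 10 libraries held 15919 cells, 8407 newborn and 7512 adult, with 1209 to 1814 cells and 5139726 to 13441944 reads each. Over all types, median reads per cell were 6092 to 7145.5 in newborn libraries and 2557.5 to 3338 in adult libraries. Of the 15 cell type names, 8 were used at both ages and covered 7689 cells, 5289 newborn and 2400 adult. They made up 59.4% to 67.0% of the cells of a newborn library and 28.1% to 36.9% of those of an adult library. Another 4 names were used only in newborns (CPN, ScPN, Inh_NPY, Inh_Pvalb) and 3 only in adults (NFOL, MFOL, MOL). The names are the authors' annotation. The table of cells holds no gene values, so the names could not be checked against marker genes here.

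The 8 names span the main classes of the cortex. Astrocytes (Astro) support synapses and supply neurons with metabolites. Oligodendrocyte precursors (OPC) divide and give rise to committed precursors (COP), the next step towards the cells that make myelin. Pyramidal neurons are the excitatory projection neurons and were named as corticothalamic (CthPN), which project to the thalamus, as layer IV (LayerIV), which receive thalamic input, or without a subclass (ExNeuron). Inhibitory interneurons that express somatostatin (Inh_Sst) mainly contact dendrites of pyramidal neurons, and those that express vasoactive intestinal peptide (Inh_Vip) mainly contact other interneurons.

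Some libraries of 1 age stood apart. ExNeuron cells numbered 168 and 188 in Day0 libraries 1 and 2 and 0, 1 and 0 in Day0 libraries 3 to 5, whereas LayerIV cells numbered 2 and 8 against 178, 147 and 113. Type counts of libraries 1 and 2 agreed within sampling noise (chi-square test of the counts, p = 0.362), as did those of libraries 3 and 4 (p = 0.411) and of libraries 4 and 5 (p = 0.256), whereas libraries 3 and 5 differed (p = 0.0101). The Y7 libraries held more neurons than the Y8 libraries, 378 and 261 against 104, 73 and 85. Libraries that agreed were not copies of each other: any 2 libraries shared 1 to 9 cell barcodes, and 147 of 15771 barcodes occurred in more than 1 library. Results are given with these sets pooled and, where they differ, apart.

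**Figure D1:**
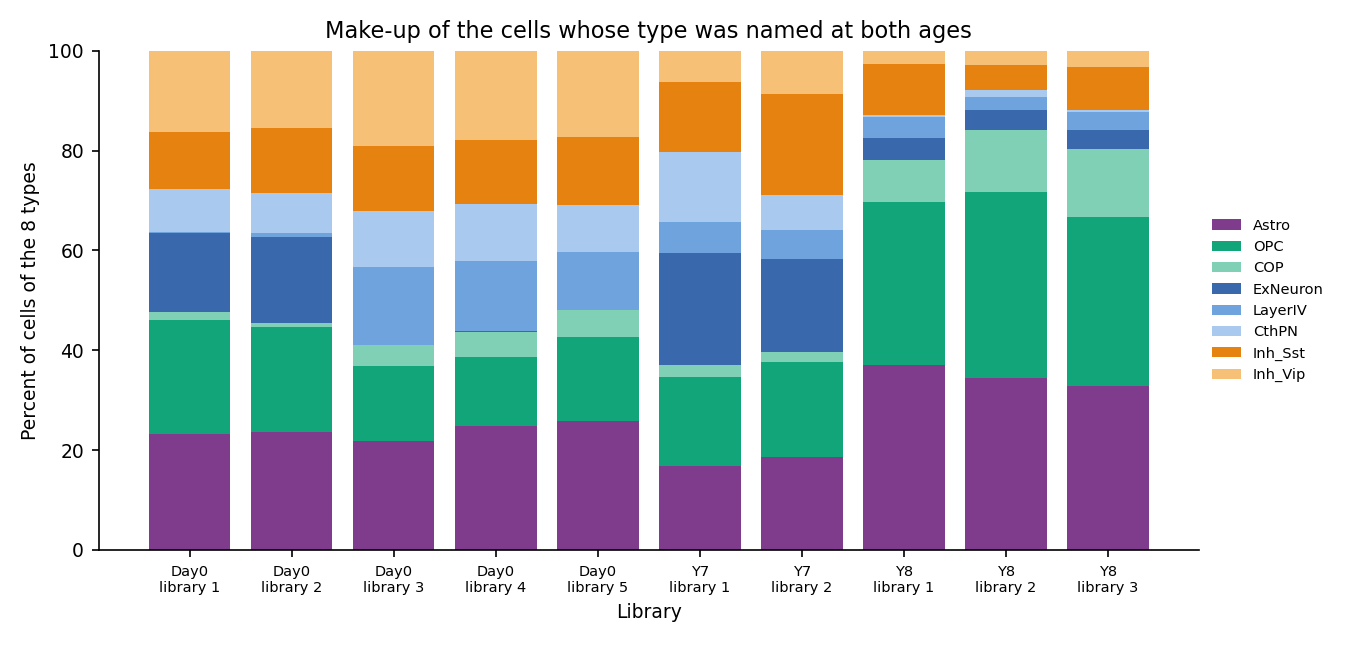
Stacked bars give, for each of the 10 libraries, the percent of cells in each of the 8 types, out of the cells of those types (vertical axis, 0 to 100). Inh_Vip (light orange, top) took 15.5% to 19.1% in newborn and 2.74% to 8.56% in adult libraries, and ExNeuron (dark blue) is visible in Day0 libraries 1 and 2 but not in 3 to 5.

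The first question was how much signal a cell of each type gave at either age. Reads per cell were taken as the median over the cells of a type in 1 library, where it held at least 10 of them. Astrocytes fell with age. Their median was 3753, 3440, 5277, 5065.5 and 5450.5 reads in Day0 libraries 1 to 5, against 2991 and 2957.5 in the Y7 and 2546.5, 2536 and 2608 in the Y8 libraries. The adult values did not overlap the newborn ones, with Day0 libraries 1 and 2 between the remaining newborn libraries and the adults. The mean was 4597 ± 930 reads at Day0 and 2728 ± 227 in the adult libraries (SD, n = 5 per age), a log2 difference of -0.73 or 0.602-fold (exact permutation test over libraries, two-sided, p = 0.00794, adjusted p = 0.0476 over 6 types). This p was the smallest that 5 against 5 libraries can give. The difference was -0.40 against Day0 libraries 1 and 2 alone and -0.95 against Day0 libraries 3 to 5 alone. Without any 1 library other than Y7 library 1 the call was lost (adjusted p = 0.0794 to 0.0952, exact permutation test), while the difference kept between -0.83 and -0.66.

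Reads of oligodendrocyte precursors stood at nearly 1 level. The medians were 4835, 4164, 4794, 4888.5 and 5243 reads in Day0 libraries 1 to 5, 4660 and 5094 in Y7, and 4590, 4459.5 and 4455.5 in Y8. The ages overlapped and the log2 difference was -0.04 (adjusted p = 0.676, exact permutation test, n = 5). Committed precursors, their descendants, gave 5045, 5612 and 5219 reads in Day0 libraries 3 to 5 and 2612 in Y7 library 1 and 3201.5, 2466 and 2424 in Y8. Day0 library 1, with 16 such cells, lay among the adults at 2830 reads, and Day0 library 2 and Y7 library 2 held under 10. Their log2 difference of -0.77 did not pass (p = 0.0571, adjusted p = 0.114, exact permutation test, n = 4 libraries each).

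Among neurons no type passed on reads. Inh_Sst cells had 9757, 7909, 9145, 8055.5 and 9205.5 reads in Day0 libraries 1 to 5, against 8871 and 6617.5 in Y7 and 6119.5, 6163 and 5960 in Y8. All adult libraries but Y7 library 1 lay below all newborn libraries. The log2 difference was -0.40, or 0.759-fold (p = 0.0238, adjusted p = 0.0714, exact permutation test, n = 5), and without Y7 library 1 it was -0.50 and passed (adjusted p = 0.0476 by the exact permutation test with 4 adult libraries). Inh_Vip cells had 7085, 6622, 7129.5, 7491.5 and 7436 reads in newborns, against 10335 and 10125 in Y7 and 6092, 7420 and 5036.5 in Y8. The Y7 libraries lay above all newborn libraries and 2 of 3 Y8 libraries below them, and the log2 difference was 0.07 (adjusted p = 0.778, exact permutation test, n = 5).

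Pyramidal names rested on fewer libraries. LayerIV cells had 7106.5, 8351 and 10279 reads in Day0 libraries 3 to 5, 5320 and 5877 in Y7, and 10015, 10024 and 7694 in Y8. Y7 lay below and Y8 within the newborn range, and the log2 difference was -0.17 (adjusted p = 0.676, exact permutation test, n = 3 against 5). ExNeuron cells had 9414.5 and 9723 reads in Day0 libraries 1 and 2, 4900 and 4302 in Y7, and 5857, 9942.5 and 8450 in Y8. CthPN cells had 8292.5, 7526.5, 10906, 9717 and 10210.5 reads in newborns and 8236 and 6123.5 in Y7, while Y8 libraries held only 2, 7 and 2 of them. With 2 libraries at 1 age, neither of these last types was tested. Of 6 types tested on reads, 1 passed.

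**Figure D2:**
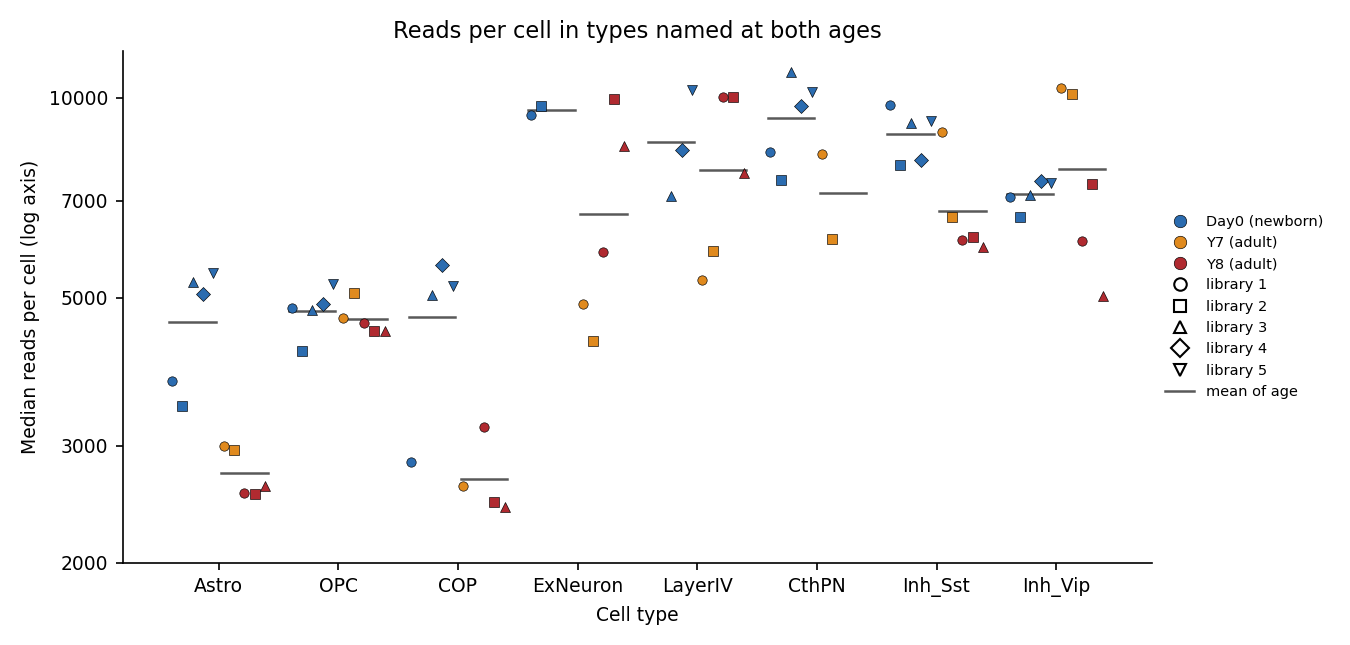
Each symbol is the median reads per cell (log axis) of a type in 1 library with at least 10 cells of it, by age (colour) and library number (shape), and lines are age means. The adult astrocyte medians, 2536 to 2991 reads, lie below the newborn ones, 3440 to 5451, whereas OPC medians overlap between 4164 and 5243.

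The change with age was then compared between types, in the 4 types with enough cells in all 10 libraries. This comparison was added after the values were seen. The astrocyte to OPC ratio of median reads was 0.947 in newborns and 0.586 in adults (geometric means), with ranges of 0.776 to 1.1 and 0.555 to 0.642. The astrocyte change lay below that of OPC (log2 difference -0.69, adjusted p = 0.0238 over 6 pairs, exact permutation test, n = 5) and below that of Inh_Vip by -0.80 (adjusted p = 0.0238). Inh_Sst lay below Inh_Vip, at -0.47 (adjusted p = 0.0317), and OPC above Inh_Sst, at 0.36 (adjusted p = 0.0476, exact permutation tests, n = 5). The remaining pairs, Astro with Inh_Sst (-0.33, adjusted p = 0.124) and OPC with Inh_Vip (-0.11, adjusted p = 0.564), did not pass the same exact permutation test.

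The paper describes downsampling meant to make reads per cell alike between libraries. In the kept cells of all types, however, library medians were 6092 to 7145.5 reads in newborns and 2557.5 to 3338 in adults. How far this gap reflects depth or the types present at each age was not tested. The reads of a type were therefore also set against the other shared types of the same library. On this scale OPC lay 0.36 higher in adults (log2, 1.28-fold, adjusted p = 0.0476) and Astro 0.45 lower (0.733-fold, adjusted p = 0.0476, exact permutation tests, n = 5). OPC reads themselves differed by only -0.04, so the OPC value comes mainly from its reference. OPC values did not overlap between the ages and those of Astro did. Inh_Vip lay 0.47 higher (p = 0.0397, adjusted p = 0.0794), Inh_Sst differed by -0.07, LayerIV by 0.28 and COP by -0.44, and none of these passed the exact permutation test over 6 types. The 2 calls turned on the reference. With only the 4 types found in all libraries as reference, Astro passed (-0.61, adjusted p = 0.0317) and OPC missed the threshold (0.31, adjusted p = 0.0529, exact permutation tests, n = 5). With at least 30 cells required per type and library, OPC passed (0.79, adjusted p = 0.0317) and Astro did not (-0.12, adjusted p = 0.70, exact permutation tests, n = 5). The types in the reference then differed between the ages. Y8 libraries kept no neurons but Inh_Sst, and these not in library 2, whereas every newborn library kept Inh_Sst, Inh_Vip and CthPN. In the main setting CthPN was already missing from the Y8 reference. LayerIV was missing from that of Day0 libraries 1 and 2, and ExNeuron from that of Day0 libraries 3 to 5. COP was missing in Day0 library 2 and Y7 library 2. The part of these gaps in the differences was not tested. Leaving out 1 library kept both calls only without Day0 library 2 or Y7 library 1 and that of OPC also without Y8 library 3, with Astro between -0.54 and -0.39 and OPC between 0.32 and 0.40.

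Peaks are the genomic intervals the authors scored as open, and peaks per cell counts those with at least 1 read. They moved like the reads. Astrocytes fell from 1846, 1724, 2706, 2562 and 2778.5 peaks in Day0 libraries 1 to 5 to 1564 and 1514.5 in Y7 and 1322.5, 1321 and 1337.5 in Y8. No adult library reached a newborn one, and the log2 difference was -0.69 or 0.618-fold (adjusted p = 0.0476, exact permutation test, n = 5), lost without any 1 library other than Y7 library 1 (adjusted p = 0.0794 to 0.0952). As for reads, 1 result alone could not pass with 4 against 5 libraries. OPC peaks differed by 0.01 on the log2 scale (2405 ± 228 and 2412 ± 120, SD, n = 5). Inh_Sst peaks differed by -0.35 (p = 0.0317, adjusted p = 0.0952), Inh_Vip by 0.11, LayerIV by -0.17 and COP by -0.69 (adjusted p = 0.171, n = 4), and none passed the exact permutation test.

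Peaks rise with reads, so both ages were next read at 4000 reads, from a line of log2 peaks on log2 reads in each library and type with at least 20 cells. At this common depth the astrocyte difference was small. Astrocytes had 1967, 2011, 2094, 2084 and 2086 peaks in Day0 libraries 1 to 5, 2098 and 2031 in Y7, and 2071, 2121 and 2116 in Y8. Day0 libraries 1 and 2 were lowest and the other 3 newborn libraries lay among the adults. This left a log2 difference of 0.03 (p = 0.222, adjusted p = 0.30, exact permutation test, n = 5), and -0.00061 against Day0 libraries 3 to 5 alone. For OPC the values were 1936, 2006, 2088, 2077 and 2084 in newborns and 2105, 2072, 2069, 2095 and 2100 in adults, again with Day0 libraries 1 and 2 lowest (0.04, p = 0.135, exact permutation test, n = 5). Inh_Sst had 2002, 2036, 2155, 2148 and 2160 against 2231, 2158, 2119, 2102 and 2154 peaks (0.04, p = 0.246, exact permutation test, n = 5).

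Of 5 types tested at 4000 reads none passed, by the adjusted or the unadjusted exact permutation test, and for COP and LayerIV (3 against 3 libraries) the smallest possible p was 0.1. Inh_Vip had 1978, 2032, 2155, 2142 and 2168 peaks in newborns and 2197 and 2179 in Y7, the only adult libraries with enough cells. Corticothalamic neurons had 2092, 2145, 2210, 2187 and 2195 against 2262 and 2235. For both types the Y7 libraries were above all newborn libraries, with log2 differences of 0.06 and 0.05, untested with 2 adult libraries. ExNeuron cells, found at Day0 only in libraries 1 and 2, had 2046 and 2117 peaks against 2204 to 2251 in 3 adult libraries. In all 5 types measured in every newborn library, libraries 1 and 2 had the lowest newborn values. Their part in these differences was not tested beyond leaving them out.

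**Figure D3:**
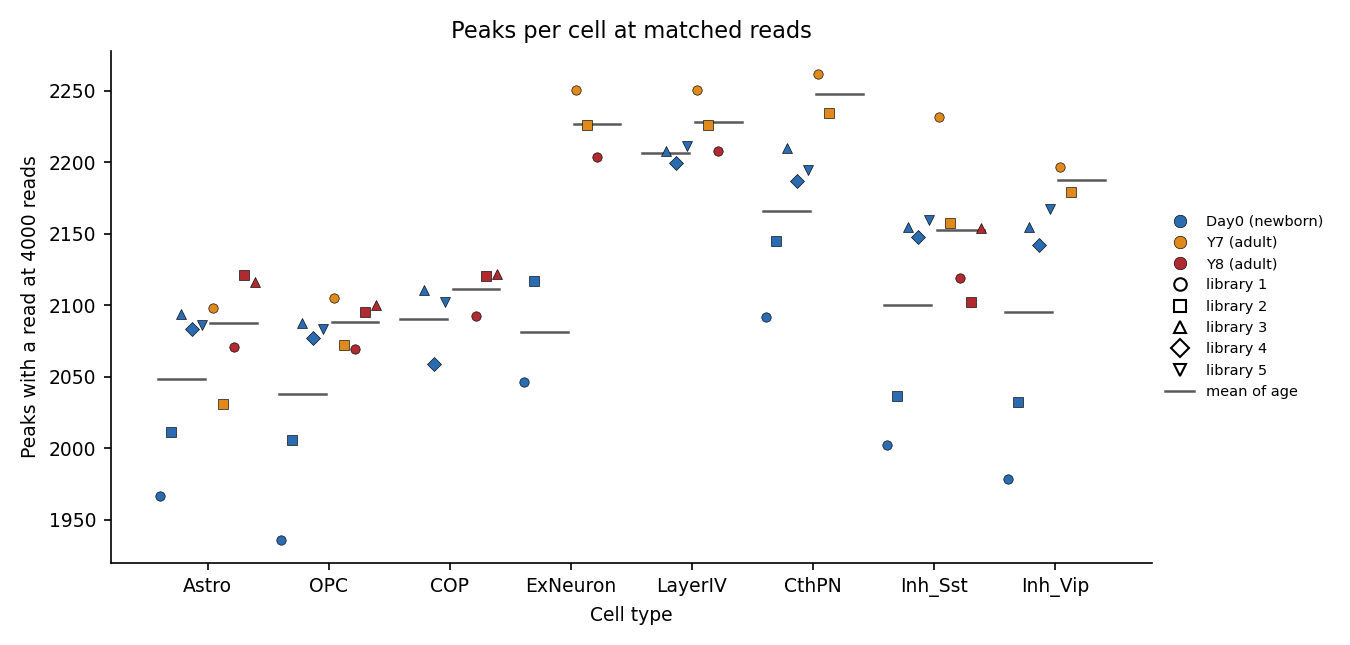
Peaks with a read at 4000 reads per cell (linear axis that does not start at 0), read from a line fitted in each library and type with at least 20 cells, by age (colour) and library number (shape), with age means as lines. Day0 libraries 1 and 2 (blue circle and square) lie at the bottom of each type that has them, for example 1936 and 2006 for OPC against 2077 to 2088 in Day0 libraries 3 to 5.

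The spread within a type was wide among neurons. Cells with at least 10000 reads made up 30.1% to 47.5% of newborn and 13.0% to 35.3% of adult Inh_Sst cells per library, and 25% to 35.3% of newborn and 7.69% to 59.5% of adult Inh_Vip cells. In glia such deep cells were few: 2.80% to 13.4% of newborn and 2.50% to 7.92% of adult astrocytes, and 4.14% to 14.5% and 2.41% to 6.16% of OPC.

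The make-up of the cells of the 8 shared names was first described as percentages of their sum in each library, which were not tested because the parts of a fixed sum cannot move independently. Astrocytes were 23.9% ± 1.53 in newborns and 28.0% ± 9.52 in adults, and OPC 17.9% ± 3.91 and 28.1% ± 8.94 (SD, n = 5 per age). Inh_Vip cells were 17.2% ± 1.41 and 4.71% ± 2.58, with no overlap, and Inh_Sst cells 12.8% ± 0.860 and 11.6% ± 5.89. The adult libraries differed by age label, and astrocytes took at most 18.5% in Y7 and at least 32.9% in Y8.

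Cell numbers were compared as ratios within each library, 10 in all, of which 3 passed. Astrocytes relative to all neurons rose with age. The ratio was 0.223, 0.228, 0.182, 0.204 and 0.215 in Day0 libraries 1 to 5, 0.267 and 0.307 in Y7, and 1.69, 2.18 and 1.67 in Y8. No libraries of the ages overlapped, but Y7 lay just above the newborn range and Y8 far above it. The log2 difference was 2.05, or 4.15-fold (adjusted p = 0.0265 over 10 ratios, exact permutation test, n = 5), made up of 0.45 in Y7 alone and 3.12 in Y8 alone. Only without Y7 library 1 (2.48) or Y8 library 1 (1.82) did the call stay (adjusted p = 0.0397), and otherwise it was 0.0529 with 1 library left out (exact permutation test). The ages stayed apart in each of these sets. The call thus turned on how many of the other ratios reached the smallest possible p.

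Part of the denominator had no adult counterpart, since CPN, ScPN, Inh_NPY and Inh_Pvalb cells were named only in newborns. With neurons of the 5 names used at both ages alone, the newborn ratios became 0.445, 0.433, 0.369, 0.441 and 0.496. The Y7 libraries then lay below all newborn libraries and the Y8 libraries above all of them. The log2 difference was 1.001 (adjusted p = 0.238, exact permutation test, n = 5), with -0.60 in Y7 and 2.07 in Y8 alone, so the direction differed between the adult labels. Age, animal and preparation cannot be told apart between these labels. Reads per cell moved with the same groups: at least 3000 reads were reached by 57.6% to 85.4% of newborn and 35.2% to 49.5% of adult astrocytes, and by 78.7% to 84.7% of newborn and 72.4% to 84.6% of adult neurons. Among cells with at least 3000 reads, the ratio to all neurons was 0.163 to 0.214 in newborns, 0.174 and 0.206 in Y7 and 0.818, 0.933 and 0.815 in Y8 (log2 difference 1.29, adjusted p = 0.222, exact permutation test, n = 5). There Y7 lay within the newborn range.

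Early oligodendrocyte lineage cells (OPC and COP) rose relative to all neurons. The ratio was 0.233, 0.209, 0.160, 0.155 and 0.185 in Day0 libraries 1 to 5, 0.320 and 0.349 in Y7, and 1.87, 3.15 and 2.41 in Y8. All adult libraries lay above the newborn ones, by 2.56 on the log2 scale or 5.88-fold (adjusted p = 0.0265, exact permutation test, n = 5), with 0.85 in Y7 and 3.69 in Y8 alone. With 1 library left out the adjusted p was 0.0397 without Y7 library 1 (3.00) or Y8 library 1 (2.36) and 0.0529 otherwise. Among cells with at least 3000 reads the difference was 2.54 and passed (adjusted p = 0.0265, exact permutation test, n = 5). With neurons of the 5 names used at both ages alone, a choice made after seeing the data, the newborn ratios became 0.465, 0.398, 0.324, 0.334 and 0.427. The Y7 libraries then lay within or just below the newborn range and the Y8 libraries above it. The log2 difference of 1.5 missed the threshold (adjusted p = 0.238, exact permutation test), and it was -0.21 in Y7 and 2.64 in Y8 alone.

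Within the oligodendrocyte lineage, OPC to COP ratios were 15.1, 32.7, 3.60, 2.72 and 3.13 in newborns, 7.64 and 10.4 in Y7, and 3.85, 2.97 and 2.48 in Y8. Day0 libraries 1 and 2, with 16 and 7 COP cells, stood far above Day0 libraries 3 to 5, with 47, 53 and 52. The log2 difference was -0.55 (adjusted p = 0.484, exact permutation test, n = 5), and it was -2.21 against Day0 libraries 1 and 2 alone and 0.56 against Day0 libraries 3 to 5 alone. Without Day0 library 2 it was -0.00065. Astrocytes relative to OPC were 1.02, 1.12, 1.46, 1.81 and 1.53 in newborns and 0.944, 0.964, 1.14, 0.924 and 0.973 in adults. Only Y8 library 1 lay within the newborn range. The log2 difference of -0.46 did not pass (p = 0.0238, adjusted p = 0.0595, exact permutation test, n = 5). It passed without Y8 library 1 (-0.51, adjusted p = 0.0397) and among cells with at least 3000 reads (-1.30, adjusted p = 0.0265, exact permutation tests). That read limit kept 57.6% to 85.4% of newborn but 35.2% to 49.5% of adult astrocytes. The -1.30 therefore mixes cell numbers with reads per cell and is no separate evidence on cell numbers.

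Among interneurons, Inh_Sst cells rose relative to Inh_Vip cells. The ratio was 0.694, 0.839, 0.676, 0.731 and 0.790 in Day0 libraries 1 to 5, 2.30 and 2.38 in Y7, and 3.69, 1.77 and 2.64 in Y8. Every newborn library held fewer Sst than Vip cells and every adult library more. The mean was 0.746 ± 0.0681 in newborns and 2.56 ± 0.71 in adults (SD, n = 5), a log2 difference of 1.71 or 3.28-fold (adjusted p = 0.0265, exact permutation test). Unlike the ratios to neurons, it was of similar size in Y7 (1.64) and Y8 (1.76) alone. It also kept its size among cells with at least 3000 reads (1.66), as did OPC and COP to all neurons. The differences of Astro to neurons shrank at this limit. The Sst to Vip difference passed there (adjusted p = 0.0265 by the exact permutation test with 5 libraries per age). With 1 library left out it lay between 1.58 and 1.84, passing without Y7 library 1 or Y8 library 1 (adjusted p = 0.0397, exact permutation test) and not otherwise (0.0529). The adult ratio rests on 281 Sst and 114 Vip cells, and on 13 or 14 Vip cells in each Y8 library. Newborn interneurons also carried the names Inh_Pvalb (817 cells) and Inh_NPY (330 cells), which no adult cell did. Whether adult cells of these classes were named Inh_Sst or Inh_Vip could not be checked, so the ratio may follow the naming. The authors also dropped small groups after splitting clusters by age, so adult Vip cells may be missing from the count. This could not be checked either.

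The other 4 ratios were between neurons of shared names and did not pass. Sst and Vip cells together relative to pyramidal neurons of shared names were 1.21 ± 0.146 in newborns and 1.06 ± 0.415 in adults (SD, n = 5; log2 difference -0.30, adjusted p = 0.484, exact permutation test). Ratios with CthPN, LayerIV or ExNeuron cells followed the split within an age. CthPN to LayerIV was 46 and 11 in Day0 libraries 1 and 2, 0.708 to 0.814 in Day0 libraries 3 to 5, 2.27 and 1.2 in Y7, and 0.100, 0.583 and 0.125 in Y8. Its log2 difference was -2.51 (adjusted p = 0.238, exact permutation test, n = 5), ExNeuron to CthPN and LayerIV differed by 4.80 (adjusted p = 0.238), and Sst and Vip to CthPN by 1.15 (adjusted p = 0.317), by the same exact permutation test.

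These ratios with few cells moved strongly with the libraries used. The 4.80 rests on newborn ExNeuron counts of 0, 1 and 0 in Day0 libraries 3 to 5, with 0.5 added to each count. It ranged from 3.67 without Day0 library 3 to 6.22 without Day0 library 2, with 3.81 without Day0 library 5, 4.11 without Day0 library 4 and 6.19 without Day0 library 1, and was 1.64 with cells pooled by age. CthPN to LayerIV ranged from -3.06 without Y7 library 1 to -1.58 without Day0 library 1 and was -0.02 with cells pooled by age. Sst and Vip to CthPN passed without Y7 library 1 (1.70, adjusted p = 0.0397, exact permutation test) and was 0.68 without Y8 library 1 and 0.75 without Y8 library 3.

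**Figure D4:**
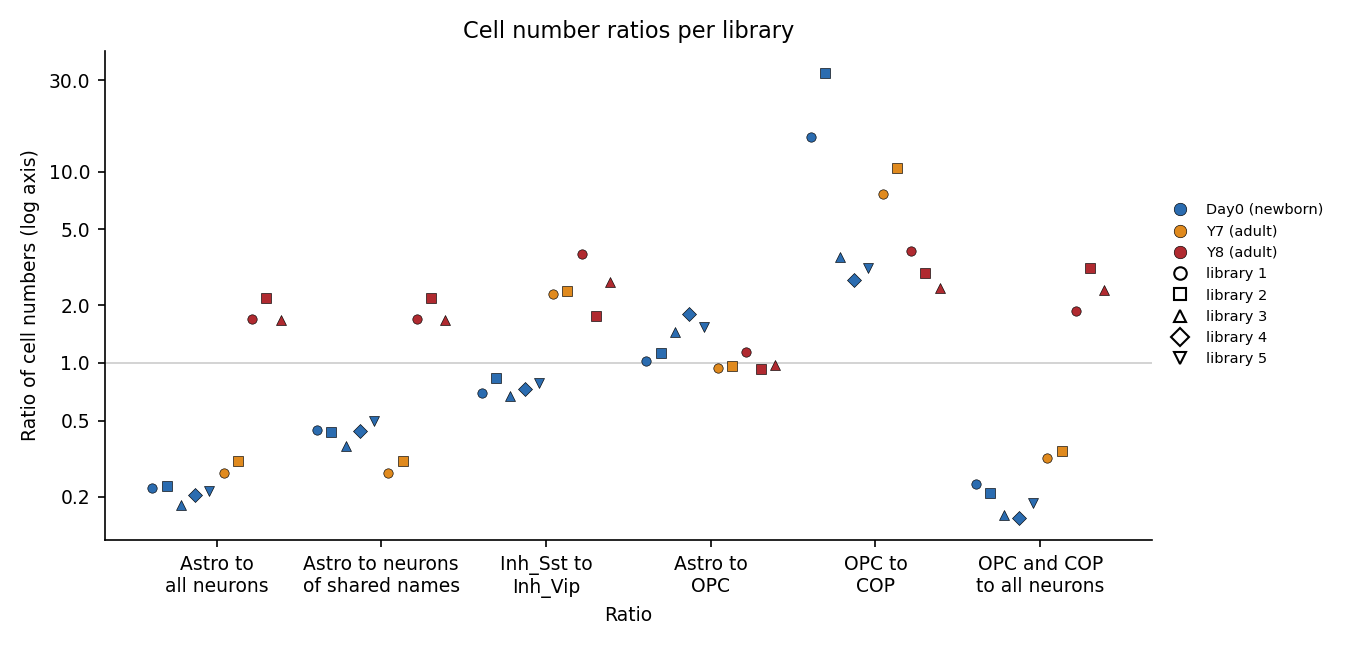
Ratios of cell numbers per library (log axis) for 6 pairs of types or classes, by age (colour) and library number (shape), with a line at 1. Inh_Sst to Inh_Vip lies at 0.676 to 0.839 in all newborn and 1.77 to 3.69 in all adult libraries, whereas in the ratio of Astro to neurons of shared names the Y7 libraries (0.267 and 0.307) lie below and the Y8 libraries (1.67 to 2.18) above the newborn ones.

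The last question was which clusters held cells of both ages. The authors clustered all cells together, split each cluster by age and dropped the small groups that resulted, of which the smallest kept held 110 cells. A cluster therefore counts here as holding both ages only where a sizeable group of each was kept, and a type missing at 1 age may have been dropped by this rule. Of 26 clusters, 15 held only newborn and 9 only adult cells, and 2 held both ages, with 883 cells or 5.55% of all. They were cluster 12, of Vip interneurons, and cluster 19, of committed precursors. The other 6 types named at both ages shared no cluster between them. Astrocytes, for example, lay in cluster 2 in newborns (1260 cells) and in cluster 8 in adults (658 cells), and Sst cells in clusters 9 (675) and 22 (281).

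Cluster 19 held all committed precursors, 175 newborn and 179 adult. It made up 0.992%, 0.432%, 2.59%, 3.06% and 3.19% of Day0 libraries 1 to 5, 0.860% and 0.662% of the Y7, and 2.55%, 3.53% and 4.03% of the Y8 libraries. At either age 2 libraries lay below 1% and 3 above 2%, so that the split ran within the ages. The log2 difference in share was 0.19 (adjusted p = 0.778, exact permutation test, n = 5). Since the cluster and the COP name cover the same cells, its reads and peaks are those given above.

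Cluster 12 held all 114 kept adult Vip cells and 415 newborn ones, 45.6% of newborn Vip cells. The other 495 newborn Vip cells lay in cluster 11, which had no kept adult cells. As a share of all cells it fell, from 5.08%, 4.07%, 5.02%, 5.09% and 5.40% in Day0 libraries 1 to 5 to 2.27% and 3.06% in Y7 and 0.828%, 0.791% and 0.957% in Y8. No adult library reached a newborn one, with a mean of 4.93% ± 0.502 against 1.58% ± 1.03 (SD, n = 5) and a log2 difference of -1.87 or 0.273-fold (adjusted p = 0.0476, exact permutation test). The difference was -0.90 in Y7 and -2.52 in Y8 alone, and it did not pass with any 1 library left out (-2.17 to -1.68, adjusted p = 0.0952 each, exact permutation test). This share is taken of all cells, and the oligodendrocyte names used only in adults are part of that total.

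Within cluster 12 the reads of a cell were 7944, 7890.5, 8814, 8726.5 and 8306 in Day0 libraries 1 to 5, against 10335 and 10125 in Y7 and 6092, 7420 and 5036.5 in Y8. Adult libraries thus lay on both sides of the newborn ones, Y7 above and Y8 below. The log2 differences of -0.15 in reads (p = 0.492, adjusted p = 0.738) and -0.10 in peaks (adjusted p = 0.762) did not pass the exact permutation test (n = 5). Newborn Vip cells of cluster 12 had more reads than those of cluster 11 in 5 of 5 libraries, by 1.27-fold ± 0.0673 (SD). Of the 6 tests on the 2 clusters, 1 passed.

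The Sst to Vip ratio depended on which newborn Vip cells were counted. With only the Vip cells of cluster 12, chosen after the clusters were seen, it was 1.46, 2.14, 1.60, 1.55 and 1.5 in newborns, and in adults it stayed at 2.30, 2.38, 3.69, 1.77 and 2.64. Day0 library 2 then lay above Y8 library 2. The log2 difference was then 0.58 instead of 1.71 and missed the threshold (adjusted p = 0.0529 by the exact permutation test, n = 5).

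**Figure D5:**
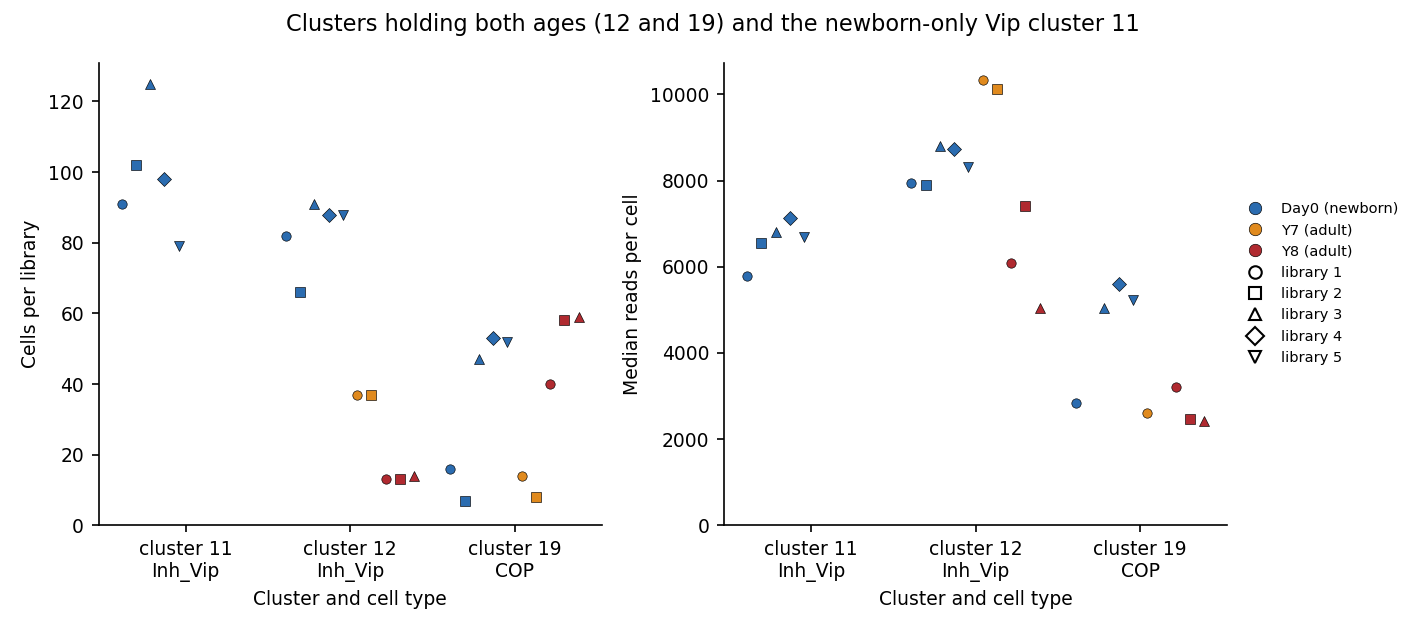
Cells per library (left) and median reads per cell (right) of the 2 clusters that hold both ages and of the newborn-only Vip cluster 11, by age (colour) and library number (shape). Cluster 12 holds 66 to 91 cells in each newborn and 13 to 37 in each adult library, and cluster 11, with 79 to 125, has no kept adult cells.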

How the data were processed

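The authors aligned reads to CalJac3 with Bowtie2, removed duplicates with Picard, sampled libraries to a similar fragment depth per cell, called peaks with MACS2 within Scasat and brought them to 1 width, kept cells within limits on reads and peaks, clustered them after latent semantic indexing, removed small and outlier clusters, and named types from inferred activity of marker genes. The submitters' processing notes name MACS2 and mm10. Doublet handling is not stated in the sources used. The labels carry a protocol for sorting labelled projection neurons, but the study describes unfractionated tissue, of somatosensory and motor cortex. The adults were Y7 and Y8, as in the labels.

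The deposited table holds 1 row per cell with 2 counts, reads and peaks with a read, not normalized, and the authors' type and cluster. Reads per cell ran from 1000 to 14997. Mouse libraries were not used.

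Each library gave 1 value: the median reads or peaks of a type (at least 10 cells), peaks at 4000 reads (at least 20 cells), a ratio of cell numbers (0.5 added to each count in the test), or the share of a cluster. Ratios printed per library have nothing added. Ages were compared by the exact permutation test over libraries (two-sided, mean log2 values, scipy 1.17.1), at an adjusted p of 0.05 by Benjamini-Hochberg within each family, for types with 3 libraries at each age. Cells were not used as replicates. The smallest possible p was 0.00794 for 5 against 5 libraries and 0.0159 for 4 against 5. Named features were all types and clusters found at both ages. These and the tests were chosen with earlier results of these data known. The steps for reads, peaks and peaks at matched reads were tested on simulated data. These had equal cell numbers in all types and libraries and peaks at a fixed share of reads. The steps for relative reads, ratios, clusters and blocks were not tested in this way.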

Additional observations from a re-analysis of the deposited data

Results flagged for a closer look

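In 75 groups of 4 or 5 libraries, 7 had 1 library far from the rest (Dixon's test at 95%, which chance alone meets in about 1 of 20 groups). Day0 library 1 was low for committed precursors, at 2830 reads and 1398.5 peaks, beside 5045 to 5612 reads in Day0 libraries 3 to 5. Y7 library 1 was high for Sst interneurons, at 8871 reads and 4533 peaks, and its Sst reads lay 0.82 (log2) above the other types of that library. Y8 library 1 was high among adults for astrocytes per OPC, at 1.14 (with 0.5 added to each count), and Day0 library 2 was low among newborns for the share of cluster 12, at 4.07%.

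The change of reads with age differed between types in 4 of 6 pairs tested after the values were seen. The differences were -0.69 for Astro against OPC, -0.80 for Astro against Inh_Vip, 0.36 for OPC against Inh_Sst and -0.47 for Inh_Sst against Inh_Vip. For peaks at 4000 reads, none of the 3 pairs measured in 5 libraries of each age passed, and the 3 pairs with Inh_Vip, measured in 2 adult libraries, could not pass.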

How the results depend on the processing

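Differences are on the log2 scale, adult minus newborn. Direction held in most settings, and the losses of calls came mainly with fewer libraries, where the smallest possible p is larger: 0.0159 for 4 against 5 libraries, 0.0357 for 3 against 5, 0.0952 for 2 against 5, and 0.0571 after averaging libraries that agreed. Y7 alone, Day0 libraries 1 and 2 alone and the averaged set therefore could not pass for any result. Y8 alone and Day0 libraries 3 to 5 alone could pass only where most results of a family reached the smallest p together. Their counts of 0 thus say little. With 1 library left out, 1 result at the smallest p could not pass alone, and calls turned on how many others of the family reached it. Day0 sets and the animals behind them cannot be told apart. Low cell numbers limit the adult neuron values, where Y8 libraries held 13 or 14 Vip cells and 2 to 7 CthPN cells each.

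With Y7 libraries alone, the Astro to neuron ratio was 0.45 and the Sst to Vip ratio 1.64. Opposite in sign to the whole set were OPC reads (0.030), relative reads of LayerIV (-0.30) and Inh_Sst (0.075), Astro to neurons of shared names (-0.60), OPC to COP (0.35), Sst and Vip to CthPN (-0.34), the share of cluster 19 (-1.09), and reads (0.30) and peaks (0.32) of cluster 12. With Y8 libraries alone, the count that passed was 0 for reads, peaks, relative reads, ratios and clusters alike. There the Astro to neuron ratio was 3.12 and the Sst to Vip ratio 1.76, and LayerIV reads (0.11) and peaks (0.071), Inh_Vip reads (-0.23) and peaks (-0.16), OPC peaks (-0.033) and Sst and Vip to pyramidal neurons (0.077) turned.

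Day0 libraries 1 and 2 alone (chosen after seeing the data) gave 1.95 for Astro to neurons and 1.68 for Sst to Vip, and turned OPC reads (0.050), ExNeuron to CthPN and LayerIV (-0.82) and cluster 12 peaks (0.054). Day0 libraries 3 to 5 alone gave 2.12 and 1.74 for these ratios, a count of 0 for reads, peaks, relative reads, ratios and clusters, and turned OPC peaks (-0.083), peaks at 4000 reads of Astro (-0.00061) and Inh_Sst (-0.0011), relative reads of Inh_Sst (0.018), OPC to COP (0.56) and the share of cluster 19 (-0.68). Averaging agreeing libraries gave 1.81 for Astro to neurons and 1.62 for Sst to Vip, and turned OPC peaks (-0.0096) and the share of cluster 19 (-0.18).

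Day0 and adult libraries share replicate numbers. For same-numbered libraries, type shares as deviations from the group mean had correlations of 0.08 and -0.03 with Y7 and -0.02, 0.02 and 0.29 with Y8. These gave little sign of pairing but cannot exclude it. The deviations of the 2 Y7 libraries mirror each other, and a shared preparation was not tested. With the replicate number as a block, where the smallest possible p was 0.111, the Astro to neuron ratio was 2.21, the Sst to Vip ratio 1.75 and OPC reads 0.0084.

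At least 5 cells per type and library let more types into the test, and the count was 0 for reads, for peaks and for relative reads. At least 30 cells, where the types in the reference differed between the ages, gave a count of 1 for relative reads and turned those of Inh_Sst (0.26). Means of log2 values in place of medians gave a count of 0 for relative reads and turned LayerIV reads (0.19), LayerIV peaks (0.18) and OPC peaks (-0.039). With 4 types as reference the count was 1 for relative reads. In cells with 3000 to 5000 reads Astro peaks differed by -0.091, and COP peaks read at 2500 reads by -0.0055. Among cells with at least 3000 reads Astro to neurons was 1.29, and with Vip cells of cluster 12 alone Sst to Vip was 0.58. With neurons of shared names and Y7 libraries alone, OPC and COP to neurons turned (-0.21). The cause of these shifts was not tested.

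With 1 library left out, the count ran from 0 to 2 for reads and for peaks (2 without Y7 library 1), 0 to 2 for relative reads, 0 to 4 for ratios (4 without Y7 library 1 or Y8 library 1), and was 0 for clusters without any 1 library. Astro to neurons ranged from 1.73 to 2.48 and Sst to Vip from 1.58 to 1.84. Ranges that crossed 0 were Inh_Vip reads (-0.044 to 0.21), OPC peaks (-0.041 to 0.048), Inh_Sst relative reads (-0.18 to 0.0089), the share of cluster 19 (-0.29 to 0.55) and cluster 12 peaks (-0.21 to 0.037).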

Other observations

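Some newborn types lay in more than 1 cluster. Newborn OPC cells lay in cluster 6 (813 cells) and cluster 24 (134 cells), and cluster 24 had more reads in 5 of 5 libraries, with medians of 5949, 6188, 6422, 8541 and 8047 against 4812, 3862.5, 4688, 4589 and 4894 in cluster 6. The ratio was 1.54 ± 0.244 (SD, n = 5). Adult OPC cells lay in 1 cluster, with a pooled median of 4616 reads. Newborn corticothalamic neurons lay in clusters 20 and 23, where the second had more reads in only 2 of 5 libraries. These values were not tested, since the clusters were formed on the same cells.

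Cells near the lower limit were unequally spread. Astrocytes with under 1500 reads made up 10.1%, 16.0%, 2.85%, 3.85% and 2.40% of the type in Day0 libraries 1 to 5 and 13.9% to 16.4% in adults. The kept cells began at 1000 reads, so medians of types near that limit leave out cells below it.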
